A study of Homo sapiens with 34 samples.

Results

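The control culture of the study was followed through 2 successive cycles of 24 hr, and the question here is how its RNA differed between the second cycle and the first. *Bmal1*:*luc* U2OS cells descend from a human osteosarcoma and stably carry luciferase under control of the *Bmal1* promoter. They were synchronized with dexamethasone, a glucocorticoid that sets the clocks of cultured cells to a common phase, and then kept with DMSO, the solvent of the drug given to the other culture. The members are 12 control RNA libraries out of 34 libraries in the series, labelled CT00 to CT44 at intervals of 4 hr. The study's plots number the same series from the day after dexamethasone, so CT00 need not be the time of synchronization. The first cycle holds 6 of them (CT00 to CT20) and the second 6 (CT24 to CT44). The culture set beside them received 5 mM 6AN, an inhibitor of the pentose phosphate pathway, and gave 12 libraries at the same times. All came from the same reporter line. Each library was compared with the library 24 hr later, which takes out a rhythm of exactly 24 hr and constant amplitude. A rhythm of another period leaves a shift of phase in the differences.

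Cells in a dish that is not split become denser, use up nutrients, and release products into the medium. Cholesterol synthesis is governed by SREBP2, a membrane-bound transcription factor that is held back when sterols are plentiful and released when they are scarce. Shortage of amino acids is read by the integrated stress response, which raises translation of the transcription factor ATF4 and with it genes of amino acid synthesis and transport. Many genes of the actin cytoskeleton are governed by SRF, whose coactivators respond to actin assembly. In this design the second cycle is also the later part of 1 time series. Time since dexamethasone, time with DMSO, cell density, and the state of the medium therefore cannot be told apart.

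The control table held 28690 loci, with expression in FPKM (fragments per kilobase of transcript, scaled to the mapped fragments of the library). The 13798 loci with a mean of at least 1 FPKM over the 12 libraries were tested. The lowest mean inside this limit was 1.001 FPKM and the highest outside it was 0.9997 FPKM. A difference is the second minus the first cycle on the log2(FPKM + 1) scale, averaged over the 6 pairs of libraries 24 hr apart and given with its standard error (SE) from a paired limma fit. A locus was called at a Benjamini-Hochberg adjusted p of at most 0.05 over all loci tested. Each time point had 1 library, so these p-values measure how regular a difference was over 6 pairs of 1 series and not the variation between cultures.

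Relative depth, estimated from the smallest steps in the values, was 0.581 to 1.22 in the first cycle and 0.739 to 1.31 in the second, with the shallowest library at CT04. Loci of small RNAs held 40.7% to 46.1% of all FPKM of a library. Of the markers of the labelled cells, RUNX2 stood at 11.9 to 17.6 FPKM, SPARC at 290.3 to 368 FPKM, and the mesenchymal filament gene VIM at 802 to 1102 FPKM, while TWIST1 was listed at 0 in 8 libraries. Of 14 markers of other cell types, 12 were below 1 FPKM in each library, and CD3E was listed at 0 in all. The sum of the 14 was 2.54 to 4.75 FPKM in the first cycle and 2.48 to 4.39 FPKM in the second.

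Between the cycles, 201 loci (1.46% of those tested) were higher in the second and 265 (1.92%) were lower, together 3.38%. Of the 466 loci called, 465 moved the same way in all 6 pairs. Over all loci tested, 878 (6.36%) were higher in all 6 pairs and 936 (6.78%) were lower in all 6. The 6 values of the second cycle lay above the 6 of the first at 198 loci (1.43%) and below them at 222 (1.61%). Most called differences were small. Their median size was 0.34, 109 loci reached 0.5, and 19 reached 1, of which 10 were higher and 9 lower. The median difference over all loci tested was 0.0047. Leaving out any 1 of the 6 pairs lowered both counts by more than 1.5 times. The counts were 105 higher and 106 lower without CT00 and CT24, 63 and 106 without CT04 and CT28, and 68 and 98 without CT08 and CT32. They were 44 and 67 without CT12 and CT36, 61 and 95 without CT16 and CT40, and 71 and 94 without CT20 and CT44. In each of these 6 fits 34 of those higher and 60 of those lower were called. All 466 loci kept their direction there, which was fixed in advance for the 465 that moved the same way in all 6 pairs.

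**Figure D1:**
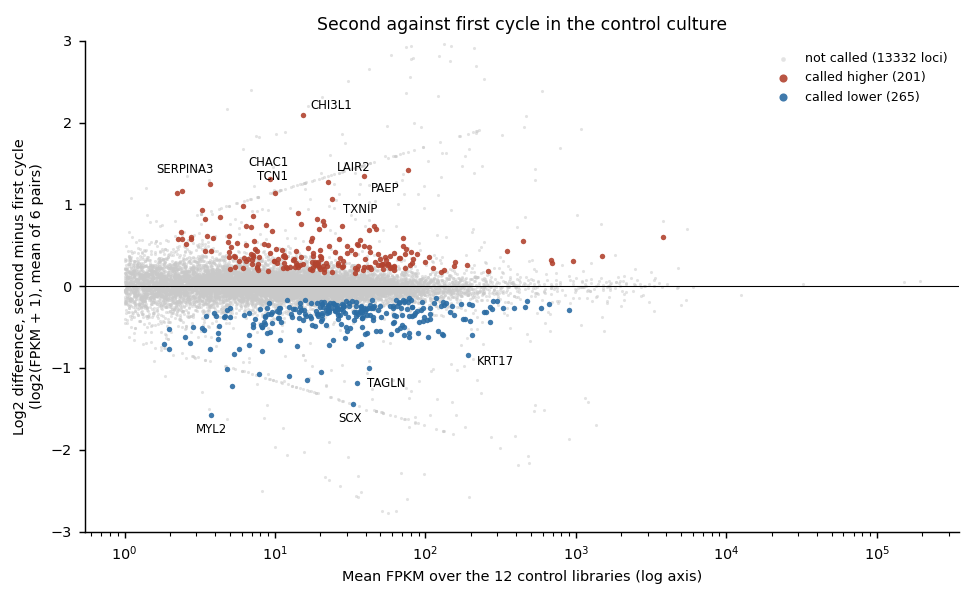
Log2 difference between the second and the first cycle (vertical axis) against mean FPKM over the 12 control libraries (horizontal axis, log scale), 1 point per locus. The 201 loci called higher and the 265 called lower are coloured, and the 13332 others are grey. The vertical axis ends at 3 in both directions and leaves out 43 loci, all of them small RNA loci and none of them called.

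CHI3L1, which encodes a secreted chitinase-like glycoprotein, had the largest rise among the genes named by rule. Its locus lies at chr1:203178931-203186794 (hg38). In the first cycle it stood at 1.92, 4.76, 5.81, 3.97, 5.88, and 10.5 FPKM from CT00 to CT20, and in the second at 21.4, 18.3, 23.0, 21.2, 33.5, and 34.0 FPKM from CT24 to CT44. The highest value of the first cycle was its last, and every value of the second lay above it. The difference was 2.10 ± 0.172 (SE, 6 pairs), which is 4.28-fold on the scale of FPKM + 1, with an adjusted p of 0.00299.

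TCN1, a secreted binding protein for vitamin B12, moved evenly. It had 5.00 to 6.62 FPKM in the first cycle, with a median of 5.89, and 10.3 to 17.5 FPKM in the second, with a median of 14.2. Its difference was 1.14 ± 0.0668 (adjusted p = 0.00219), with single pairs from 0.91 to 1.35. PAEP, the lipocalin glycodelin, stood at 16.2, 14.2, 22.7, 20.4, 26.8, and 23.5 FPKM and then at 23.2, 45.0, 53.3, 67.7, 70.3, and 82.0 FPKM. It climbed at each step of the second cycle, and only the values at CT24, CT16, and CT20 crossed between the cycles (1.35 ± 0.162, adjusted p = 0.00971). SERPINA3, the protease inhibitor alpha-1-antichymotrypsin, went from a median of 1.72 to one of 5.71 FPKM (1.25 ± 0.125, adjusted p = 0.00511). MGP, a matrix protein that inhibits calcification, went from a median of 0.869 to one of 3.57 FPKM (1.16 ± 0.165, adjusted p = 0.0173). LAIR2, a secreted collagen receptor, went from 12.3 to 28.7 FPKM at the median (1.28 ± 0.206, adjusted p = 0.0256).

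LCN1, a lipocalin of tear fluid, was listed at 0 in the library at CT00 and reached 5.38 FPKM at CT40 (1.13 ± 0.217, adjusted p = 0.0410). KLRC2 and KLRC3 encode lectin-like receptors of natural killer cells, and their differences were 0.89 ± 0.128 and 0.98 ± 0.168. They are near-identical paralogs, so that reads may be split between them and their separate levels are uncertain. LINC00326, a long noncoding RNA, rose from a median of 2.01 to one of 4.69 FPKM (0.93, adjusted p = 0.0159). CHAC1 and TXNIP, described with their pathways, complete the 12 largest rises named by rule. Of these 12, CHI3L1, SERPINA3, and TCN1 were called in all 6 fits without 1 pair, and LCN1 in none. The number still called was 10, 6, 6, 4, 5, and 7 as the pairs from CT00 to CT20 were left out in turn.

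TAGLN encodes transgelin, an actin-binding protein of contractile cells, at chr11:117179223-117204792. Its values were 77.2, 49.3, 44.9, 47.0, 35.5, and 41.3 FPKM in the first cycle and 23.9, 23.1, 18.6, 19.7, 18.2, and 19.6 FPKM in the second. The first library was the highest of all, and the cycles did not overlap. TAGLN fell by 1.19 ± 0.0914 on the log2 scale (adjusted p = 0.00299). The range of its locus overlaps the locus of SIDT2.

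KRT17, a keratin of intermediate filaments, ranged from 212 to 329 FPKM in the first cycle and from 118 to 154 FPKM in the second, with no overlap (-0.84 ± 0.0659, adjusted p = 0.00299). KRT81, a hair keratin with close paralogs, had medians of 58.9 and 26.5 FPKM (-0.999 ± 0.0763, adjusted p = 0.00299). TGFBI, an adhesive matrix protein induced by TGF-beta, stood at 37.1, 25.9, 26.5, 32.9, 23.2, and 21.0 FPKM and then at 15.4, 15.1, 15.1, 11.6, 9.59, and 10.2 FPKM (-1.06 ± 0.0977, adjusted p = 0.00392). Each of its later values lay below each of its earlier ones. HBEGF, a ligand of the EGF receptor, went from a median of 11.0 to one of 4.47 FPKM (-1.07 ± 0.1003, adjusted p = 0.00394). ADGRG1, an adhesion G protein-coupled receptor, went from 18.7 to 6.75 FPKM at the median (-1.09 ± 0.0856, adjusted p = 0.00299).

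SCX, the tendon transcription factor scleraxis, had 31.2 to 60.3 FPKM and then 9.08 to 29.7 FPKM (-1.44 ± 0.130, adjusted p = 0.00351). Its locus range overlaps that of BOP1, which fell by 0.29, so that the reads of the pair may not be fully separate. MYL2, a light chain of heart and slow muscle myosin, had the largest fall named by rule, at low levels of 4.25 to 9.72 FPKM and then 0.273 to 2.23 FPKM (-1.58 ± 0.282, adjusted p = 0.0345). MISP, an actin-binding protein of the cell cortex, fell by 1.02, the forkhead factor FOXS1 by 0.83, the pseudogene WFDC21P by 1.15, and C5orf46 by 1.22. All 12 of the falls named by rule had separate ranges in the cycles, where 1.61% of all loci were lower without overlap. They were picked for size and for a fall in all 6 pairs, which favours separate ranges. Among the rises named by rule, PAEP, SERPINA3, LCN1, TXNIP, KLRC2, and KLRC3 had ranges that overlapped. Of the 12 falls, 10 were called in all 6 fits without 1 pair, MYL2 only in that without CT00 and CT24, and C5orf46 in none. In bulk RNA, fewer cells that express a gene and less RNA per cell cannot be told apart.

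**Figure D2:**
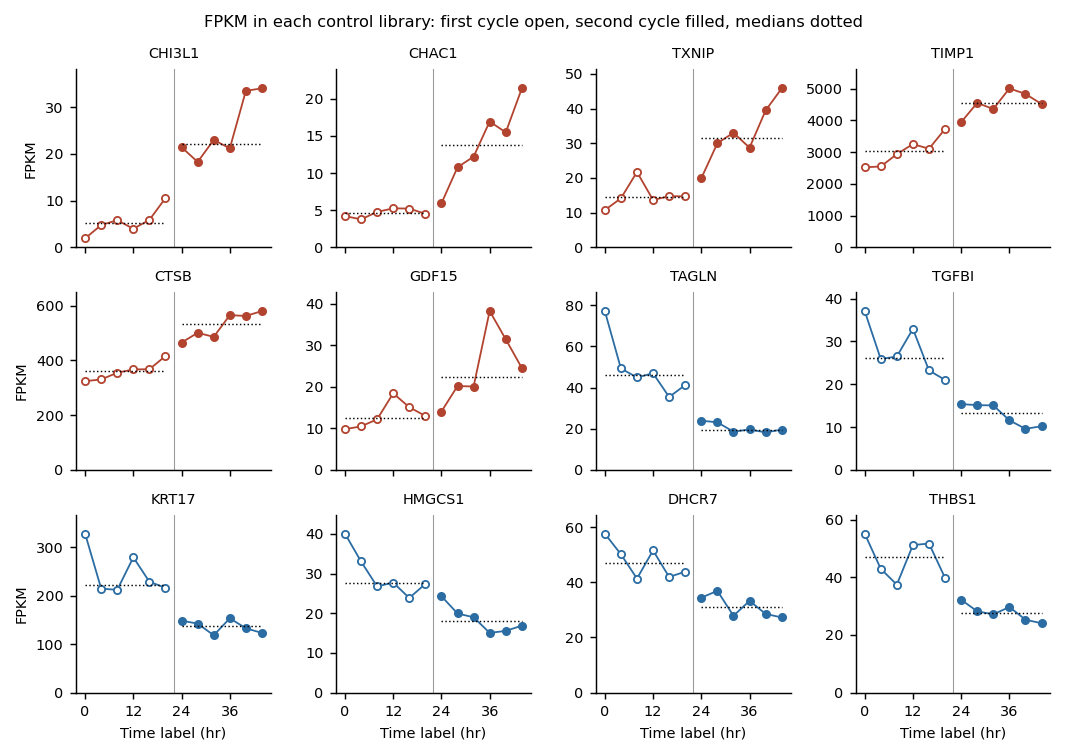
FPKM (vertical axis, from 0) of 12 genes in each control library by time label in hr (horizontal axis). Open circles are the first cycle, filled circles the second, and dotted lines the median of each cycle. CHI3L1, CHAC1, TXNIP, TIMP1, CTSB, and GDF15 were higher in the second cycle, and TAGLN, TGFBI, KRT17, HMGCS1, DHCR7, and THBS1 were lower.

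Most genes of cholesterol synthesis fell. Of 25 genes of the pathway and its regulation, 24 were tested, 19 were called lower and 0 higher, where 1.92% of all loci were called lower. The median difference of the 24 was -0.44, with medians of -0.57 to -0.37 in the single pairs, beside 0.0047 over all loci. All 24 had a negative mean difference, and 22 were lower in all 6 pairs, where 6.78% of all loci were.

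HMGCS1, which makes HMG-CoA at the head of the mevalonate pathway (chr5:43287470-43313512), stood at 40.1, 33.1, 26.8, 27.7, 23.9, and 27.4 FPKM in the first cycle and at 24.3, 19.9, 19.0, 15.1, 15.6, and 16.9 FPKM in the second. Only the values at CT16 and CT24 crossed between the cycles. The difference was -0.66 ± 0.0506 (adjusted p = 0.00299). ACAT2, which makes acetoacetyl-CoA, had the largest fall of the list (-0.72 ± 0.120, adjusted p = 0.0281), and its locus range overlaps that of TCP1. MVD and IDI1, which make and rearrange isopentenyl pyrophosphate, fell by 0.55 and 0.46, and FDPS, which makes farnesyl pyrophosphate, fell by 0.40.

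The committed sterol steps followed. FDFT1, squalene synthase, fell by 0.60 ± 0.0713 (adjusted p = 0.00964). SQLE, squalene epoxidase, had 59.4 to 102 FPKM and then 41.0 to 57.3 FPKM, without overlap (-0.59 ± 0.0632, adjusted p = 0.00695). LSS, which makes lanosterol, and CYP51A1, which demethylates it, fell by 0.40 and 0.41. EBP, an isomerase of the later steps, fell by 0.57 ± 0.0343 with the smallest adjusted p of the list (0.00219). DHCR7, a reductase that makes cholesterol in the last step, lies at chr11:71434411-71448431. It went from 57.6, 50.2, 41.3, 51.5, 41.9, and 43.8 FPKM to 34.4, 36.9, 27.8, 33.2, 28.5, and 27.2 FPKM (-0.59 ± 0.0445, adjusted p = 0.00299), and its cycles did not overlap. MSMO1, NSDHL, and SC5D, further enzymes of the late steps, fell by 0.63, 0.50, and 0.33.

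The regulators fell too. INSIG1, which holds SREBP2 in the endoplasmic reticulum, fell by 0.47 ± 0.0622 (adjusted p = 0.0133). SREBF2, the gene of SREBP2, had 61.7 to 73.6 FPKM and then 49.4 to 61.8 FPKM (-0.27 ± 0.0337, adjusted p = 0.0111). The 5 members not called were HSD17B7 (-0.34), STARD4 (-0.37), MVK (-0.27), PMVK (-0.074), and TM7SF2, whose locus is joined with VPS51 (-0.0071). The sign of that last value turned under quantile normalization and under a straight line over time. Of the 19 called, 8 were called in all 6 fits without 1 pair, HMGCS1, FDPS, SQLE, LSS, CYP51A1, EBP, and DHCR7 among them, and SC5D in none. The number still called was 11, 11, 14, 9, 11, and 12 as the pairs from CT00 to CT20 were left out in turn. All 19 kept their direction, as they must when all 6 pairs share a sign.

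Along the series the list declined. The median level of its genes, each relative to its own mean over the 12 libraries, was 0.34 over CT00 to CT08, 0.11 over CT12 to CT20, -0.11 over CT24 to CT32, and -0.32 over CT36 to CT44. The highest of the 12 libraries was CT00 (0.58) and the lowest CT44 (-0.39).

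Promoters of these genes were read for the sterol regulatory element, which SREBP proteins bind. RefSeq (GRCh38.p14) gave the 250 bases before the start of 18 of the 24 genes. The letters TCACNCCAC, on either strand, were in 1 of the 18, that of SREBF2, and in 0.883% of 35116 promoters of that length. A looser form, TCACNCNAC, which also matches the stricter one and was searched after it, was in 3 of the 18 (FDPS, HSD17B7, and SREBF2) and in 2.02% of all. The SREBF2 promoter is shown because it holds the stricter match, in capitals 133 to 125 bases before the start (chr22:41832855-41833104, plus strand).
SREBF2: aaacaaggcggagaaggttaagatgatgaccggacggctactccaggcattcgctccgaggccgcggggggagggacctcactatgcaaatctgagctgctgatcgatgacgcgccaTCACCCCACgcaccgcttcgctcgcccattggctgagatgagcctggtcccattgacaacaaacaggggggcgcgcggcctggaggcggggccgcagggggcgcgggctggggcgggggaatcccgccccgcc

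Fatty acid synthesis fell in part. Of 13 genes tested, 5 were lower and 0 higher, where 1.92% of all loci were lower, and the median was -0.14. FASN, the fatty acid synthase, stood at 80.9, 76.3, 69.2, 74.2, 67.0, and 61.4 FPKM and then at 58.0, 58.6, 51.7, 49.6, 48.7, and 49.3 FPKM. Its cycles were separate (-0.43 ± 0.0403, adjusted p = 0.00392). SCD, which makes monounsaturated fatty acids, fell by 0.50 ± 0.0452 (adjusted p = 0.00351). The desaturases FADS2 and FADS1, whose loci overlap, fell by 0.57 and 0.26. ACLY, which supplies cytosolic acetyl-CoA, fell by 0.20 ± 0.0395 (adjusted p = 0.0472). SREBF1, the gene of the SREBP1 factors, had a difference of 0.17 and was not called (adjusted p = 0.256). FASN, SCD, and FADS2 were called in all 6 fits without 1 pair, and ACLY in none.

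**Figure D3:**
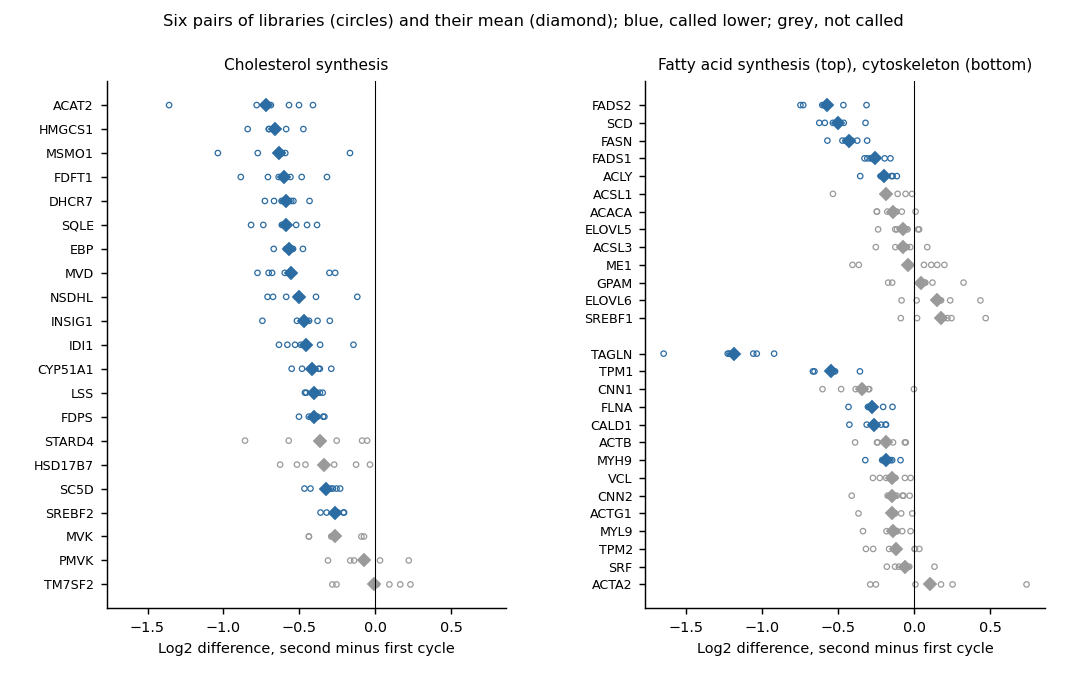
Log2 difference between the second and the first cycle (horizontal axis) for reported members of the cholesterol synthesis list (left) and of the fatty acid and cytoskeleton lists (right). Circles are the 6 pairs of libraries 24 hr apart, diamonds their mean, blue genes were called lower and grey genes were not called. For all cholesterol genes shown except PMVK and TM7SF2 the 6 circles lie below 0.

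Other genes of the cytoskeleton fell beside TAGLN. Of 14 tested from a list of cytoskeleton genes and SRF targets, 5 were lower and 0 higher, where 1.92% of all loci were lower. Their median was -0.17. In all 6 pairs 11 were lower, where 6.78% of all loci were. TPM1, a tropomyosin that lies along actin filaments, had 126 to 162 FPKM and then 88.3 to 112 FPKM, without overlap (-0.55 ± 0.0463, adjusted p = 0.00300). FLNA, which crosslinks actin filaments, went from a median of 298 to one of 251 FPKM (-0.28 ± 0.0426, adjusted p = 0.0234). CALD1 (caldesmon) and MYH9 (nonmuscle myosin heavy chain) fell by 0.27 and 0.18. ACTB, cytoplasmic beta-actin, was lower in all 6 pairs (-0.19) but was not called (adjusted p = 0.125). TAGLN and TPM1 were called in all 6 fits without 1 pair and MYH9 in none. The number of the 5 still called was 4, 2, 2, 2, 2, and 3 as the pairs from CT00 to CT20 were left out in turn. Of 18 targets of YAP and TAZ, which respond to cell shape and density, AXL alone was called (-0.24, adjusted p = 0.0460), and 13 had a negative difference. AXL was called in 1 of the 6 fits without 1 pair, that without CT12 and CT36.

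The CArG box that SRF binds was searched by its consensus on both strands. It was in 4 of 11 promoters of these genes (ACTG1, CNN2, FLNA, and SRF) and in 1.16% of all 35116. The list was chosen to hold SRF targets, so a share above that of all promoters was built in. Of the 4, FLNA alone was called lower, and a link of the box with the falls was not tested. The FLNA promoter is shown as that of a gene called lower, with the box in capitals 94 to 85 bases before the start (chrX:154374635-154374884, minus strand).
FLNA: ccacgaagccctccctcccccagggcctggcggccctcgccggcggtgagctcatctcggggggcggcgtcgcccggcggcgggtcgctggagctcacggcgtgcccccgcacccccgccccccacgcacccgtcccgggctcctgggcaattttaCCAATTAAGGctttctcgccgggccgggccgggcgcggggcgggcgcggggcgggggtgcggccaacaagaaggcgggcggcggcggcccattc

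Genes of the extracellular matrix went both ways. Of 30 tested, 3 were higher and 7 lower, where 1.46% and 1.92% of all loci were, and the median was -0.077. TIMP1, an inhibitor of matrix metalloproteinases, stood at 2524, 2549, 2938, 3257, 3108, and 3733 FPKM and then at 3948, 4555, 4361, 5012, 4837, and 4519 FPKM, with no overlap (0.60 ± 0.0712, adjusted p = 0.00964). Its locus range overlaps that of ARAF. FN1, fibronectin, rose from a median of 287 to one of 397 FPKM (0.43 ± 0.0551, adjusted p = 0.0118), and LAMB1, a laminin chain, from one of 51.3 to one of 65.7 FPKM (0.36 ± 0.0356, adjusted p = 0.00462). THBS1, thrombospondin 1, had 37.4 to 55.1 FPKM and then 24.0 to 32.2 FPKM (-0.71 ± 0.0692, adjusted p = 0.00457). COL1A1, the main chain of type I collagen, had 124 to 171 FPKM and then 84.5 to 135 FPKM, which overlap (-0.59 ± 0.0675, adjusted p = 0.00841). A locus that joins COL3A1 with MIR3606 fell by 0.52, TIMP3 by 0.38, and the gelatinase MMP2 by 0.32. MMP2 was the 1 called locus of 466 that did not move the same way in all pairs, being higher in 1 of 6. COL1A1, THBS1, TGFBI, and LAMB1 were called in all 6 fits without 1 pair. The number of the 10 still called was 7, 7, 5, 4, 8, and 6 as the pairs from CT00 to CT20 were left out in turn.

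Some genes of the integrated stress response rose, with their highest values late in the series. Of 30 tested, 5 were higher and 0 lower, where 1.46% of all loci were called higher. The median difference was 0.26, with medians of -0.048 to 0.53 in the single pairs, and 28 of the 30 had a positive difference. CHAC1, which breaks down glutathione and is a known target of ATF4, had the largest rise (chr15:40953438-40956519). It stood at 4.21, 3.76, 4.77, 5.25, 5.22, and 4.51 FPKM in the first cycle and at 5.92, 10.8, 12.2, 16.9, 15.5, and 21.4 FPKM in the second. The first cycle was nearly level, and the highest of the 12 values was the last. The difference was 1.31 ± 0.183 (adjusted p = 0.0166), with pairs from 0.41 to 2.02.

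SLC7A11, the cystine importer, had 3.79 to 4.89 FPKM and then 5.53 to 11.7 FPKM (0.74 ± 0.150, adjusted p = 0.0494). CTH, which makes cysteine from cystathionine, had 3.24 to 3.99 FPKM and then 4.27 to 8.58 FPKM (0.61 ± 0.111, adjusted p = 0.0362). DDIT4, a stress-induced inhibitor of mTORC1, had 50.2 to 60.1 FPKM and then 54.6 to 116 FPKM (0.59 ± 0.114, adjusted p = 0.0420). In all 3 the last library, CT44, was the highest. EPRS, which charges transfer RNA with glutamate and proline, rose by 0.21 ± 0.0355 (adjusted p = 0.0319).

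ATF4 itself stood at 475, 419, 429, 476, 428, and 484 FPKM and then at 440.2, 505, 556, 619, 618, and 674 FPKM. It was lower in the first pair and higher in the other 5, and was not called (0.32 ± 0.0829, adjusted p = 0.0920). ASNS, asparagine synthetase, had 24.3 to 34.6 FPKM and then 32.3 to 76.3 FPKM, and was higher in 5 of 6 pairs (0.81 ± 0.168, adjusted p = 0.0522). PSAT1 and MTHFD2, of serine synthesis and mitochondrial folate metabolism, had differences of 0.69 and 0.53 and were not called (adjusted p = 0.0891 and 0.0523). The lowest value of the list, -0.97 ± 0.740, was that of a locus that joins ATF5 with the microRNA gene MIR4751, which ranged from 17.3 to 884 FPKM in the first cycle and from 14.2 to 592 FPKM in the second.

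The median level of the list was -0.15 over CT00 to CT08, -0.14 over CT12 to CT20, -0.016 over CT24 to CT32, and 0.30 over CT36 to CT44. The calls depended on single pairs. Without CT00 and CT24, 8 members were called, without CT04 and CT28 or CT20 and CT44, 1 each, and without CT08 and CT32, CT12 and CT36, or CT16 and CT40, 0 each, by limma. Over all loci, 0.319% to 0.761% were called higher in those fits. The median of the list was 0.22 to 0.32 in them. A straight line over time with a 24 hr rhythm, in place of the difference between cycles, called 13 of the 30 higher. It called 2.55% of all loci higher.

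The amino acid response element was searched as TGATGNAA on either strand. It was in 2 of 18 promoters of the list, those of ASNS and CHAC1, and in 3.14% of all 35116. The CHAC1 promoter is shown because CHAC1 had the largest rise of the list, with the match in capitals 209 to 202 bases before the start (chr15:40953221-40953470, plus strand).
CHAC1: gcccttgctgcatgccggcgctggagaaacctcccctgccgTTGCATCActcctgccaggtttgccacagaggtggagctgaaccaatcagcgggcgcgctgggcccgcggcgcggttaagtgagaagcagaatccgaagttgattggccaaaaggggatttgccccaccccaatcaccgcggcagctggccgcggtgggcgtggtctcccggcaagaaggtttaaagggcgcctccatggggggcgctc

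**Figure D4:**
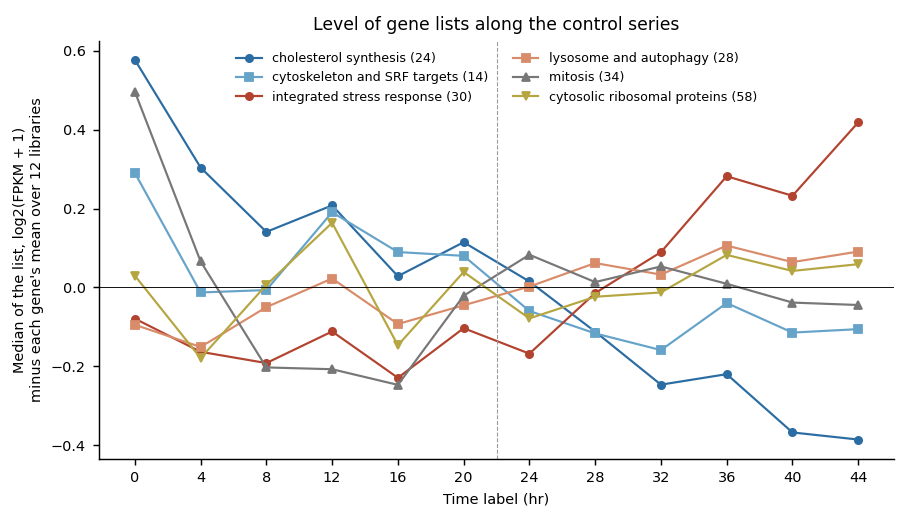
Median level of 6 gene lists in each control library (vertical axis, log2(FPKM + 1) relative to each gene's mean over the 12 libraries) by time label in hr (horizontal axis). The dashed line separates the cycles. Cholesterol synthesis went from 0.58 at CT00 to -0.39 at CT44, and the integrated stress response from -0.079 to 0.42. Mitosis was highest at CT00 and lowest at CT16.

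MondoA is a transcription factor that senses glucose phosphates. Of 7 genes tested around it, TXNIP and ARRDC4, known targets, were called higher, where 1.46% of all loci were. The median of the 7 was 0.045. TXNIP, which binds thioredoxin and restrains glucose uptake, lies at chr1:145992426-145996631. It stood at 10.7, 14.1, 21.7, 13.6, 14.7, and 14.7 FPKM and then at 19.9, 30.0, 33.0, 28.7, 39.5, and 45.8 FPKM. Only the values at CT08 and CT24 crossed between the cycles (1.07 ± 0.126, adjusted p = 0.00922). ARRDC4, a related arrestin, had 1.24 to 2.66 FPKM and then 2.74 to 3.51 FPKM (0.52 ± 0.0955, adjusted p = 0.0370). TXNIP was called in 5 of 6 fits without 1 pair, and missed the threshold without CT12 and CT36 (adjusted p = 0.0526). ARRDC4 was called in 1 of the 6. The E-box letters CACGTG were in 1 of 6 promoters of these genes and in 6.35% of all 35116. The promoter of ARRDC4 is shown as the one that holds them, with the box in capitals 210 to 205 bases before the start (chr15:97960453-97960702, plus strand).
ARRDC4: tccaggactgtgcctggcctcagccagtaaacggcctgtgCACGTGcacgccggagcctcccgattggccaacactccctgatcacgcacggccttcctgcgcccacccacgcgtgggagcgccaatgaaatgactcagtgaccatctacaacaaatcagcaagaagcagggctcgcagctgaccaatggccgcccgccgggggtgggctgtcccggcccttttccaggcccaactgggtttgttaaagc

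Beside the counts of the following lists, 1.46% of all loci were called higher and 1.92% lower. Of 24 genes of glycolysis, 1 was higher and 3 were lower. SLC2A3, a glucose transporter, rose by 0.36 ± 0.0530 (adjusted p = 0.0196), and the enzymes GPI, ALDOA, and PGAM1 fell by 0.17, 0.26, and 0.24. Of 19 genes of the hypoxia response, the vascular growth factor VEGFA rose by 0.44 ± 0.0672 (adjusted p = 0.0219) and MXI1 by 0.21, and BHLHE40 fell by 0.33. Of 20 targets of NRF2, the antioxidant regulator, 1 was higher and 2 were lower. SLC7A11 rose, and PRDX1, a peroxiredoxin, fell by 0.27 (adjusted p = 0.0356). None of these glycolysis, hypoxia, and NRF2 genes was called in all 6 fits without 1 pair.

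Some genes of the lysosome and of autophagy rose by small amounts. Of 28 tested, 5 were higher and 0 lower, where 1.46% of all loci were higher, with a median of 0.12 and medians of 0.090 to 0.22 in the single pairs. CTSB, a lysosomal cysteine protease, stood at 324, 331, 355, 367, 368, and 416 FPKM and then at 465, 501, 486, 566, 563, and 581 FPKM. It rose through the first cycle as well, and the cycles did not overlap (0.55 ± 0.0367, adjusted p = 0.00254). NPC1 and NPC2 move cholesterol out of lysosomes. NPC1 went from a median of 9.09 to one of 12.8 FPKM (0.44 ± 0.0605, adjusted p = 0.0161), and the locus that joins NPC2 with MIR4709 rose by 0.30 ± 0.0493 (adjusted p = 0.0263). CTSD, an aspartic protease, rose by 0.20, and GABARAPL1, which takes part in autophagosome formation, by 0.24. CTSB alone was called in all 6 fits without 1 pair. The number of the 5 still called was 4, 1, 1, 1, 1, and 3 as the pairs from CT00 to CT20 were left out in turn.

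Few genes of proliferation were called between the cycles, where 1.46% of all loci were called higher and 1.92% lower. Of 34 genes of mitosis none was called, with differences from -0.22 to 0.19 and a median of 0.054. The medians of the list ran from -0.40 to 0.24 in the single pairs, and its median was 0.14 without CT00 and CT24. PTTG1 (securin) and TOP2A (topoisomerase II alpha) had differences of 0.069 and 0.089 and were higher in 4 of 6 pairs each. The median level of the list went from 0.50 at CT00 to -0.25 at CT16. None of 37 genes of DNA replication was called, with a median of -0.011, and PCNA, the sliding clamp, had a difference of 0.080. HIST1H2BK was the 1 of 18 clustered histone genes called (-0.30 ± 0.0596, adjusted p = 0.0475). Of 22 genes of the cell cycle arrest list, the cyclins CCND2 and CCNG2 rose by 0.33 ± 0.0578 and 0.20 ± 0.0318 (adjusted p = 0.0319 and 0.0246), with separate cycles. Both lost their call in each fit without 1 pair. They belong to the list's 7 G1 cyclins and pocket proteins, while 0 of its 6 inhibitors of cyclin-dependent kinases were called. Of 24 targets of p53, GDF15, a secreted stress cytokine, had 9.79 to 18.4 FPKM and then 14.1 to 38.3 FPKM (0.82 ± 0.0768, adjusted p = 0.00392), and PMAIP1, which promotes apoptosis, rose by 0.26.

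Of 58 cytosolic ribosomal protein genes, 33 nuclear genes of oxidative phosphorylation, 26 of the interferon response, 11 of the osteoblast lineage, and 16 immediate early genes, 0 were called by limma, with medians of 0.019, -0.039, 0.073, 0.049, and -0.028. Over all loci, 1.46% were called higher and 1.92% lower, and 2579 of 13798 had an unadjusted p under 0.05. B2M, the light chain of class I antigens, was higher in all 6 pairs but was not called (0.19 ± 0.0419, adjusted p = 0.0656). Of 23 genes of ribosome biogenesis, BOP1 and UTP20 fell, and of 30 proteasome genes PSMD2 fell by 0.21. Among 22 genes of the endoplasmic reticulum, EDEM1, which sends misfolded glycoproteins to degradation, rose by 0.34 ± 0.0288 (adjusted p = 0.00306), and the chaperones CALR and HYOU1 fell by 0.22 and 0.31. Of 16 heat shock chaperones, HSPB1 and CRYAB were called lower, by 0.30 and 0.43. All 16 had a negative difference, with a median of -0.15 and medians of -0.47 to 0.00496 in the single pairs. In all 6 pairs 6 were lower, where 6.78% of all loci were. Of 13 genes of NF-kB and cytokines, SOD2 rose by 0.29 and LIF fell by 0.47. Of 17 genes of the glucocorticoid response, 3 were higher, ERRFI1 by 0.36 ± 0.0322 (adjusted p = 0.00351), CEBPD by 0.52, and CEBPB by 0.27. The list as a whole went both ways, with 9 positive and 8 negative differences and a median of 0.040. CEBPD lost its call in 5 and CEBPB in 4 of the 6 fits without 1 pair. None of the 3 was called without the pairing by phase. ERRFI1, GDF15, and EDEM1 were called in all 6 fits without 1 pair. Without the pairing by phase EDEM1 was called, and ERRFI1 and GDF15 missed the threshold (adjusted p = 0.0506 and 0.0613). CALR, HYOU1, UTP20, PSMD2, HSPB1, and HIST1H2BK were called in none of the 6 fits. Mitochondrially encoded genes were not analysed here.

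Of 18 clock genes tested, 3 were higher and 1 lower, where 1.46% and 1.92% of all loci were, with a median of 0.061. The study reports a median period of clock genes from RNA that was shorter than the spacing of the pairs in this culture. In the other culture it was longer than that spacing. The pairing therefore need not take out the rhythms of these genes. What a shift of phase adds to their differences was not tested. DBP, an output factor driven by BMAL1 and CLOCK, stood at 16.03, 15.7, 11.3, 9.19, 13.5, and 17.8 FPKM and then at 19.9, 20.6, 16.5, 17.9, 23.7, and 29.1 FPKM. It was higher in each pair, with cycles that overlapped (0.58 ± 0.0851, adjusted p = 0.0188). The repressor PER3 rose by 0.24 (adjusted p = 0.0433), BHLHE41 rose by 0.30 (adjusted p = 0.0341), and its paralog BHLHE40 fell by 0.33 (adjusted p = 0.0278). None of these 4 was called in all 6 fits without 1 pair, and PER3 and BHLHE41 were called in none. Without the pairing by phase, 1 of the 4 was called.

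**Figure D5:**
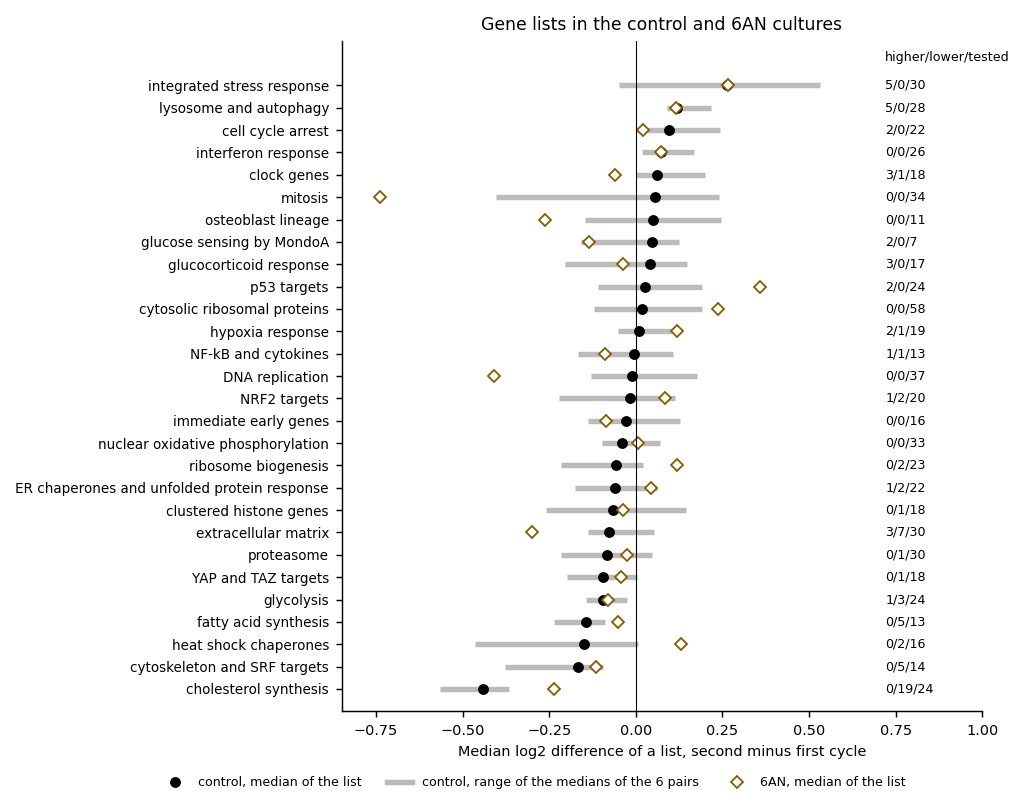
Median log2 difference between the second and the first cycle (horizontal axis) of each gene list (vertical axis). Black points are the control culture, grey bars the range of its medians over the 6 pairs, and open diamonds the 6AN culture. Numbers on the right count the control genes called higher, called lower, and tested. Cholesterol synthesis is lowest in control at -0.44, and mitosis is lowest in 6AN at -0.74.

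The 6AN culture was fitted in the same way within its own table. The study reports longer median periods in this culture than in control, over circadian transcripts and, more strongly, over clock genes. A pairing by 24 hr therefore need not remove rhythms equally in the cultures. The tables were normalized separately, so values are set side by side and the difference between the cultures was not tested. In 6AN, 1123 loci (8.16% of 13770) were higher in the second cycle and 1273 (9.24%) were lower. Without 1 pair these counts were 480 to 880 and 584 to 1040. Of the control loci called higher, 150 of 194 in both tables were also higher in 6AN, and of those called lower 225 of 262 were also lower, where 61.8% of all 13269 loci shared their sign. The loci called higher in both cultures were 78, which is 40.2% of the control calls and 6.996% of the 6AN calls, and those called lower in both were 115, which is 43.9% and 9.08%. In the opposite direction, 6AN called 8 of the control rises and 3 of the falls. The median differences of the control calls were 0.34 in control and 0.16 in 6AN for those higher, and -0.33 and -0.20 for those lower. The Pearson correlation of control with 6AN differences was -0.024 over loci called higher in control and 0.435 over those called lower. Over all loci of both tables it was 0.115.

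In 6AN, 11 of 24 cholesterol genes were lower and 0 higher, where 9.24% of all loci were lower. Their median was -0.24, beside -0.44 in control. DHCR7 had -0.44 in 6AN (adjusted p = 0.00523), and EBP had -0.68 (adjusted p = 0.00944). HMGCS1 had -0.22 and was not called (adjusted p = 0.0608). Of the integrated stress response, 20 of 30 genes were higher in 6AN and 5 in control, with medians of 0.27 and 0.26. Over all loci, 8.16% were higher in 6AN and 1.46% in control. TGFBI had -0.96 in 6AN and -1.06 in control, and GDF15 1.44 and 0.82.

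CHI3L1 had a difference of 0.25 in 6AN (adjusted p = 0.450), with medians of 10.5 and 12.6 FPKM there, beside 2.10 in control. CHAC1 had 0.20 in 6AN (adjusted p = 0.117), with medians of 17.9 and 20.8 FPKM there and of 4.64 and 13.9 FPKM in control. TXNIP had 0.057 (adjusted p = 0.362), with medians of 89.5 and 97.4 FPKM in 6AN and of 14.4 and 31.5 FPKM in control. For both, the median of the first cycle of 6AN lay above that of the second of control, across tables that were normalized separately. For CHAC1 the control value at CT44, 21.4 FPKM, was higher than that 6AN median. MGP fell by 1.204 in 6AN (adjusted p = 0.00541) and rose by 1.16 in control. All 34 genes of mitosis and 28 of 37 of DNA replication were called lower in the second cycle of 6AN, where 9.24% of all loci were. The medians of these lists there were -0.74 and -0.41, and none of their genes was called in control.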

How the data were processed

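Total RNA depleted of ribosomal RNA was sequenced with single-end reads of 50 bases. Expression values were deposited by the authors as FPKM per locus in 1 table for the control and 1 for the 6AN culture, on hg38. The submitters' processing notes name Bowtie, TopHat, and Cufflinks, with versions not given in the sources used here. RNA was extracted in triplicate, and whether extracts were pooled for a library is not stated. FPKM are not counts, so no counting interval is given. Samples were grouped by their time labels. Loci with a mean FPKM of at least 1 were fitted on log2(FPKM + 1) with limma 3.58.1 in R 4.3.3, with the phase (6 pairs) as a block, an intensity trend, and Benjamini-Hochberg adjustment. Tables were made with Python 3.11.15, pandas 2.3.3, NumPy 2.4.6, and matplotlib 3.10.9. Genes were named by rule: the 12 highest and 12 lowest differences among called loci with 1 symbol, no small RNA, and the same sign in all 6 pairs, and members of the lists that were called or, otherwise, of high mean FPKM. ASNS, PSAT1, MTHFD2, SREBF1, and the uncalled members of the cholesterol list were named after their values were seen. The comparison, its members, and the 30 gene lists were chosen with earlier results of these data known. On simulated data for the control comparison with 13798 loci, 62 of 100 loci changed by 0.5 and 87 of 100 changed by 1 were called, with 5 of 13598 unchanged loci. The simulated noise was independent for each locus and library. Movements shared by genes or by neighbouring libraries were not simulated, so these rates need not hold for the real series. Locus starts were deposited 1 base below those printed. Some members of the lists are counted but not reported here. Libraries of other assays were not used here.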

Additional observations from a re-analysis of the deposited data

Results flagged for a closer look

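In 8 of 228 sets of 6 values (114 loci in each cycle), 1 library stood apart from the other 5 by Dixon's test at the 95% level, which chance does in about 1 of 20 sets. In each the value was the highest and came from the first library of its cycle. At CT00 these were MSMO1 (50.6 FPKM, with 35.1 FPKM the next highest of the first cycle), ACLY (90.2 and 77.1 FPKM), PSMD2 (176 and 145 FPKM), CALD1 (57.9 and 47.2 FPKM), and STARD4 (28.2 and 21.8 FPKM). At CT24 they were PGAM1 (134.6 FPKM, with 116.0 FPKM the next highest of the second cycle), PRDX1 (588 and 534 FPKM), and MVK (10.3 and 7.61 FPKM). The 8 of 228 sets are fewer than 1 in 20, and whether CT00 and CT24 stood apart as libraries was not tested.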

How the results depend on the processing

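The 201 higher and 265 lower loci became 36 and 59 at an adjusted p of at most 0.01 and 466 and 519 at 0.1. A straight line over time gave 352 and 408, leaving out small RNA loci 325 and 370, and no filter on low values 116 and 179. Leaving out 1 pair of libraries gave 44 to 105 higher and 67 to 106 lower, with fewer libraries in each fit. In 6AN it gave 480 to 880 higher and 584 to 1040 lower. Other settings (a pseudocount of 0.1, a mean of at least 5 FPKM, median centring, quantile normalization, array weights, no intensity trend, and a rule on pairs) kept both control counts within 1.5 times. Similar counts did not mean the same loci. Of the 248 higher and 238 lower loci of the rule on pairs, 124 and 157 were among the 201 and 265. Without an intensity trend 135 of 157 and 171 of 181 were, and on the straight line 172 of 352 and 247 of 408. The labels carry no replicate numbers, so pairs were set by phase. Without that pairing 217 were higher and 247 lower, of which 137 and 194 were called with it. For the 97 named loci that were called, 308 of 582 values without 1 pair lost the call and 0 turned sign. The sign could not turn where all pairs of a locus shared it. The locus of TM7SF2 and VPS51 was 0.0031 under quantile normalization and 0.012 on a straight line, and -0.055 to 0.048 without 1 pair. The median of the clustered histone list was -0.22 without CT16 and CT40. Otherwise the causes were not tested. From FPKM only relative depth could be given, and no counting error.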
